A study of Gallus gallus with 3 samples.

Results

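The miRNAs gga-miR-103 and gga-miR-107 were taken by name, as 2 of the 542 chicken miRNAs on the array. The rule used no measured value, though it was chosen with earlier results of these data known. Both miRNAs were measured in leg muscle, freed of skin and bone per the study's methods, of female embryos at 14 days of incubation. The dwarf embryos came from a dwarf strain of recessive White Rock chickens, in which part of GHR, the growth hormone receptor gene, is deleted, at the end of its coding sequence and in its 3′ untranslated region. The normal embryos came from a strain of recessive White Rock chickens of normal size. Each strain gave 3 pools of RNA from 3 embryos each, and a pool of each strain shared an array, so n = 3 arrays. On arrays 1 and 3 Cy5 marked the dwarf RNA and Cy3 the normal RNA, and array 2 had the dyes swapped. Pools hide the spread between single embryos, and the GHR deletion cannot be told apart from other differences between the strains. In whole muscle, fewer cells of a type and less RNA per cell cannot be told apart either.

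miRNAs are short RNAs that repress messenger RNAs, which they find mainly by pairing with bases 2 to 8 from their 5′ end, the seed. miR-103 and miR-107 lie in introns of the pantothenate kinase (PANK) genes, which encode the enzymes of the first step of coenzyme A synthesis. In mice, silencing of this pair improves insulin sensitivity, and caveolin-1, a component of the insulin receptor's membrane domains, is a known target. miR-103 is also used in many tissues as a reference miRNA for quantitative PCR. In a gene table of RefSeq assembly GRCg7b, used for names only, the chicken genes MIR103A2 and MIR103A1 lie inside PANK2 and PANK3, and MIR107 lies inside PANK1.

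The mature sequences that the array was designed to detect are shown to place the single base by which the pair differs, with the seed in capitals.

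gga-miR-103: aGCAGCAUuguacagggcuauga

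gga-miR-107: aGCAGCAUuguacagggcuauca

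Both have 23 bases, and they differ by 1 substitution, G22C, counted from 1 at the 5′ end of miR-103, which leaves an identity of 95.7%. The difference lies near the 3′ end and outside the seed. No other miRNA of the 542 carried the seed of the pair. In ungapped alignments shifted by up to 3 bases, the nearest other sequence had 9 mismatches to miR-103 and 10 mismatches to miR-107. The first 6 bases of the pair, AGCAGC, also occurred 1 base further in, from base 2, in 5 members of the miR-15 and miR-16 family, and from base 3 in miR-1551. The following lines show a member of each branch of the family, with the seed in capitals.

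gga-miR-15b: uAGCAGCAcaucaugguuugca

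gga-miR-16: uAGCAGCAcguaaauauuggug

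Each probe had 6 spots per array, in the same columns 2, 12 and 22. The spots of miR-103 lay in rows 13 and 76, and those of miR-107 in rows 15 and 78, so each miR-103 spot had a miR-107 spot 2 rows away. Both probes were thus read in nearly the same places of an array.

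Both miRNAs were detected in all 6 pools, far above the median empty spot of their channel. The mean signal of the miR-103 spots, after subtraction of that median, was, on arrays 1, 2 and 3, 701, 2367 and 1429 intensity units in dwarf RNA, against 1746, 1023 and 5079.6 in normal RNA. The mean signal of the miR-107 spots was 612, 2051 and 1321 in the dwarf pools, against 1576, 862 and 4850 in the normal pools. For both probes the brighter pool was the one labelled with Cy3 on every array: the normal pool on arrays 1 and 3 and the dwarf pool on array 2. Before subtraction, the spots read 13.1 to 30.8 times the median empty spot for miR-103 and 11.6 to 29.5 times for miR-107.

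The spread of the spots of a probe within a channel differed between pools, and was widest for miR-107 in the dwarf pool of array 1. In the dwarf pools the 6 miR-103 spots ran from 541 to 776 on array 1 (median 752), from 1808 to 2622 on array 2 (median 2433) and from 1315 to 1591 on array 3 (median 1427). In the normal pools they ran from 1466 to 1939 (median 1790), from 893 to 1119 (median 1053) and from 4751 to 5389 (median 4997). The spots of the pools on an array did not overlap on any array. The miR-107 spots ran from 431 to 740.1, from 1939 to 2159 and from 1222 to 1481 in the dwarf pools, against 1088 to 1832, 772 to 987 and 4525 to 5233 in the normal pools, again with no overlap on an array. The channels differed in the same direction as a whole. Over the miRNAs tested below, the median signal on arrays 1, 2 and 3 was 301, 599 and 642 in dwarf pools, against 938, 182 and 2600 in normal pools. How many of those miRNAs also had spots without overlap was not counted. The coefficient of variation over 6 spots was 4.9% to 13.7% for miR-103 and 5.3% to 22.2% for miR-107. Spots of an array are repeat measurements of the same RNA and are not counted as replicates.

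**Figure D1:**
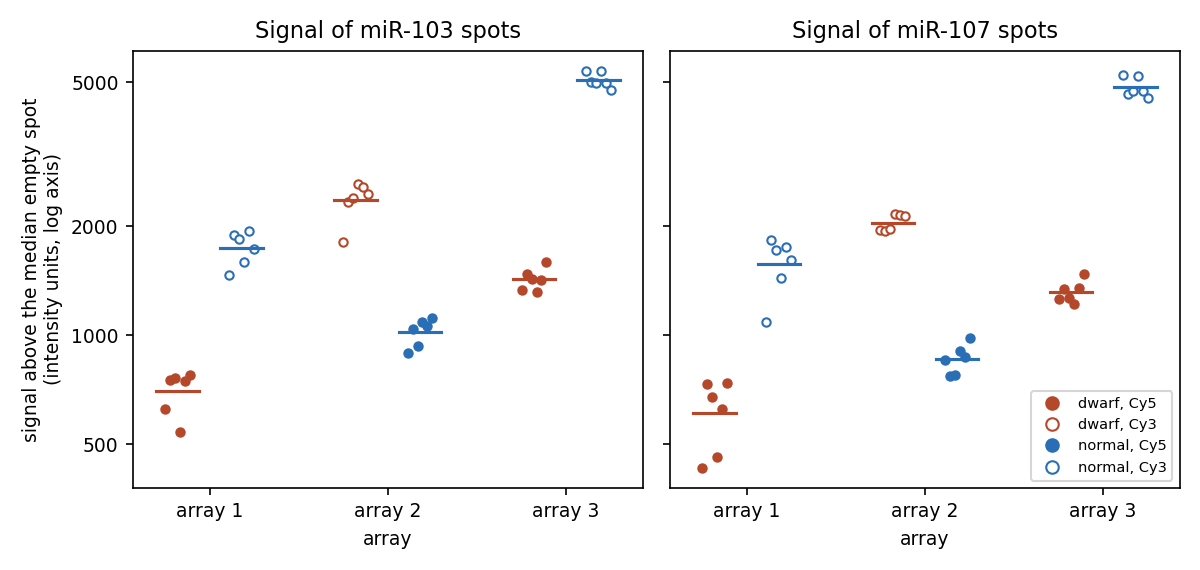
Signal of each miR-103 spot (left) and miR-107 spot (right) above the median empty spot, in intensity units on a log axis, by array, for the dwarf pool (red) and the normal pool (blue); filled points were labelled with Cy5 and open points with Cy3. The Cy3 pool is the brighter one on all 3 arrays, as it is in the median of the tested miRNAs, and the spots of the pools on an array do not overlap.

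These raw gaps mix the strains with the dyes and with the brightness of each channel, so the levels were next compared after loess normalization within arrays and scaling between arrays. By array, the normalised signal of miR-103 was 1373, 2377 and 1406 in dwarf pools, averaging 1719 ± 570.1 (SD, n = 3), against 1624, 2163 and 1846 in normal pools, averaging 1877 ± 271 (SD, n = 3). The dwarf pools held both the lowest and the highest of the 6 values, and the groups overlapped. The normalised signal of miR-107 was 1139, 1969.8 and 1242 in dwarf pools, averaging 1450.2 ± 453 (SD, n = 3), against 1377, 1766 and 1663 in normal pools, averaging 1602 ± 202 (SD, n = 3). Here too the dwarf pools held both extremes. In the order of the 6 levels, the same pool took the same place for both probes: from low to high the dwarf pools of arrays 1 and 3, the normal pools of arrays 1, 3 and 2, and the dwarf pool of array 2. No gap between neighbours in this order exceeded the SD between dwarf pools, but the largest gap of each probe exceeded the smaller SD between normal pools.

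As a description of how steady the pair was, the SD of the log2 level over the 6 pools was 0.32 for miR-103 and 0.31 for miR-107, against a median of 0.39 over the 127 tested miRNAs, which are those averaging more than 32 units of signal over the 6 pools. By this SD, counted from the steadiest miRNA, miR-103 ranked 51 of 127 and miR-107 ranked 47 of 127, both in the steadier part but with many steadier miRNAs.

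Neither miRNA differed between dwarf and normal embryos beyond the spread between arrays. The log2 ratio of dwarf over normal for miR-103 was -0.24, 0.14 and -0.39 on arrays 1, 2 and 3, and averaged -0.17 (SE 0.16, n = 3). The corresponding fold was 0.891, with a 95% confidence interval of 0.648 to 1.23, and limma gave an adjusted p of 0.824. The ratio was below 0 on 2 of 3 arrays, and its sign on array 2 was opposite to that on the others.

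For miR-107 the log2 ratio was -0.27, 0.16 and -0.42 on arrays 1, 2 and 3, and averaged -0.18 (SE 0.17, n = 3). The fold was 0.883, with a 95% confidence interval of 0.632 to 1.23, and limma gave an adjusted p of 0.824. As for miR-103, it was below 0 on arrays 1 and 3 alone. The intervals leave room for a level in dwarf embryos somewhat below or above that in normal embryos, and do not show that the strains had equal levels.

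With limma at an adjusted p of 0.05, 0 of the 2 miRNAs were called, beside 0 of 127 tested miRNAs (0%), whose adjusted p started at 0.234. At an unadjusted p of 0.05, 0 of the 2 passed, beside 14 of 127 (11%), of which 7 (5.51%) were lower in dwarf embryos. A ratio of one sign on all 3 arrays was seen for neither, beside 41 of 127 (32.3%), of which 24 (18.9%) were below 0 on all 3. The median ratio of the tested miRNAs was -0.05, and the median size of a ratio without its sign was 0.15. Ordered from the largest size, miR-107 ranked 56 and miR-103 ranked 60 of 127. The SD over the arrays was 0.27 for miR-103 and 0.30 for miR-107, beside a median of 0.33.

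Without array 2 the mean ratio was -0.32 for miR-103 and -0.35 for miR-107, and without array 3 it was -0.05 and -0.06. With array 2 left out, the dwarf pool carried Cy5 on every array that remained, so strain and dye cannot be told apart there. Neither omission brought a call, and loess fitted on the detected miRNAs alone gave means of -0.02 and -0.03.

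With normexp, the background correction of the main processing, the dye went with the sign on each array. Set as Cy5 over Cy3, the log2 ratio of miR-103 was -0.24, -0.14 and -0.39 on arrays 1, 2 and 3, so that the Cy5 pool was lower on 3 of 3 arrays, with a mean of -0.26 (SE 0.12, n = 3). For miR-107 it was -0.27, -0.16 and -0.42, lower in the Cy5 pool on 3 of 3 arrays, with a mean of -0.28 (SE 0.12, n = 3). This direction is not particular to the pair: miR-15a, miR-30d and miR-133a, among others, were also lower in the Cy5 pool on every array. The share over all 127 tested miRNAs was not counted. With limma, both dye ratios had an adjusted p of 0.611, and 0 of the 2 passed at an adjusted or an unadjusted p of 0.05, beside 0 of 127 (0%) adjusted and 12 of 127 (9.45%) unadjusted. The dwarf pool carried Cy5 on 2 of 3 arrays, so the mean strain ratio keeps part of any dye effect. With a dye coefficient beside the strain, which gives both orientations the same weight, the strain ratio was -0.09 for each miRNA.

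The sign on array 2 also went with the processing. Where the ratio of array 2 was below 0, the normal pool, labelled with Cy5, was the higher one on that array. In the log2 ratios that the authors deposited, miR-103 had -0.13, -0.19 and -0.18 on arrays 1, 2 and 3, and miR-107 had -0.15, -0.16 and -0.20, so that both were below 0 on 3 of 3 arrays, beside 35 of the 127 tested miRNAs (27.6%). The median deposited ratio of the tested miRNAs was itself below 0, at -0.11, -0.11 and -0.06. Plain subtraction of the median empty spot in place of normexp gave -0.14, -0.13 and -0.31 for miR-103 and -0.17, -0.13 and -0.34 for miR-107, again below 0 on 3 of 3 arrays for both, beside 27 of 127 (21.3%). Loess fitted on the detected miRNAs gave -0.01, 0.07 and -0.11 for miR-103 and -0.02, 0.06 and -0.14 for miR-107. No setting brought either miRNA past an adjusted p of 0.05 between the strains.

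**Figure D2:**
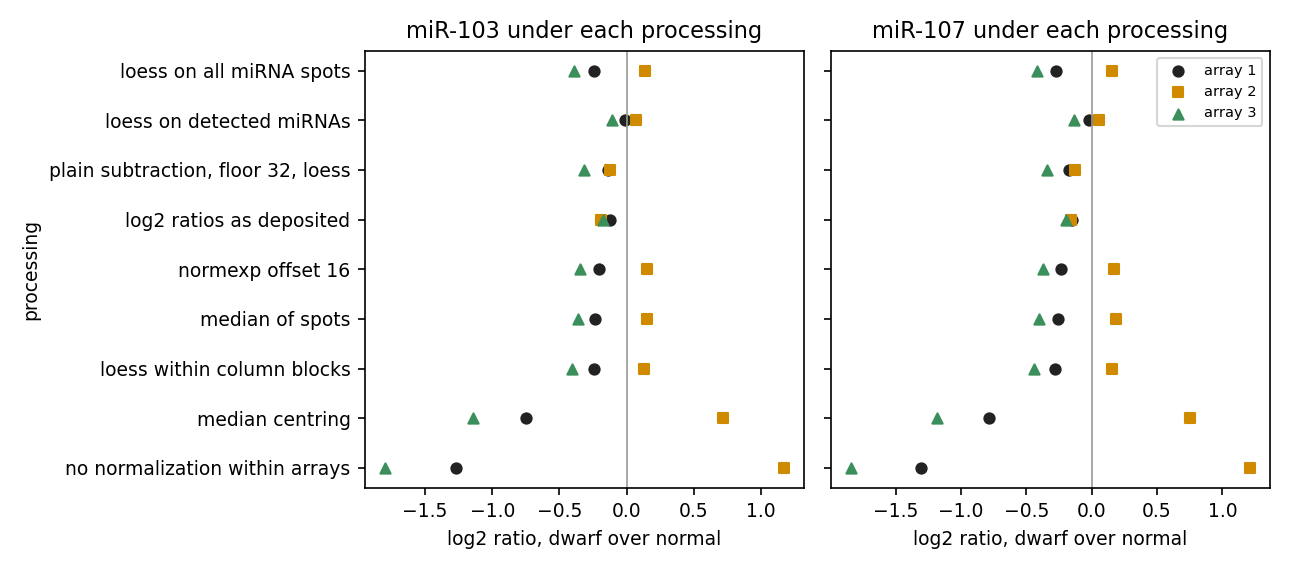
Log2 ratio of dwarf over normal for miR-103 (left) and miR-107 (right) on each of the 3 arrays (points) under each processing of the intensities (down the page). Arrays 1 and 3 stay below 0 throughout, while array 2 lies above 0 with normexp and below 0 with plain subtraction (-0.13 for both) and in the deposited ratios (-0.19 and -0.16).

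The probes gave nearly the same strain ratio on every array. The ratio of miR-103 minus that of miR-107 was 0.031, -0.022 and 0.029 on arrays 1, 2 and 3, and averaged 0.013 ± 0.030 (SD, n = 3). An exact two-sided sign-flip test over the 3 arrays gave p = 0.5, and the smallest p that 3 arrays allow is 0.25. These differences were several times smaller than the spread of either ratio between arrays, 0.27 and 0.30. The targets of the probes differ by a single base, and how much of each signal came from the other miRNA was not tested.

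The agreement held spot by spot. On array 1 the ratio was below 0 at 6 of 6 miR-103 spots (-0.44 to -0.10) and at 6 of 6 miR-107 spots (-0.50 to -0.06). On array 2 it was below 0 at 1 of 6 miR-103 spots (-0.07 to 0.28) and at 0 of 6 miR-107 spots (0.04 to 0.23). On array 3 it was below 0 at 6 of 6 miR-103 spots (-0.58 to -0.15) and at 6 of 6 miR-107 spots (-0.63 to -0.17). For both probes, with normexp, every spot of array 2 lay above every spot of the other arrays. How many of the tested miRNAs did so was not counted. In the deposited ratios array 2 was below array 1, at -0.19 against -0.13 for miR-103 and -0.16 against -0.15 for miR-107. The SD over spots was 0.12, 0.13 and 0.16 for miR-103 and 0.15, 0.076 and 0.17 for miR-107, beside medians of 0.14, 0.11 and 0.16 over the tested miRNAs.

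Neighbouring spots shared their position on the array as well as their sequence. Across the 6 places of an array, the Pearson correlation between the spot ratios of miR-103 and those of miR-107 was 0.962, 0.682 and 0.988 on arrays 1, 2 and 3. This is a description over 6 places that share an array, a channel and a region of the surface. By column, the miR-103 ratio on array 3 was -0.58 at column 2, -0.34 at column 12 and -0.26 at column 22, and that of miR-107 was -0.61, -0.35 and -0.30. On array 1 the ratios by column were -0.29, -0.28 and -0.15 for miR-103 and -0.34, -0.31 and -0.16 for miR-107. The median ratios of all tested miRNAs over the same column blocks were -0.18, -0.02 and -0.13 on array 3 and -0.07, -0.12 and 0.06 on array 1. On array 2 the ratios by column were 0.07, 0.16 and 0.18 for miR-103 and 0.13, 0.21 and 0.14 for miR-107. The part of position in the agreement was not tested.

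**Figure D3:**
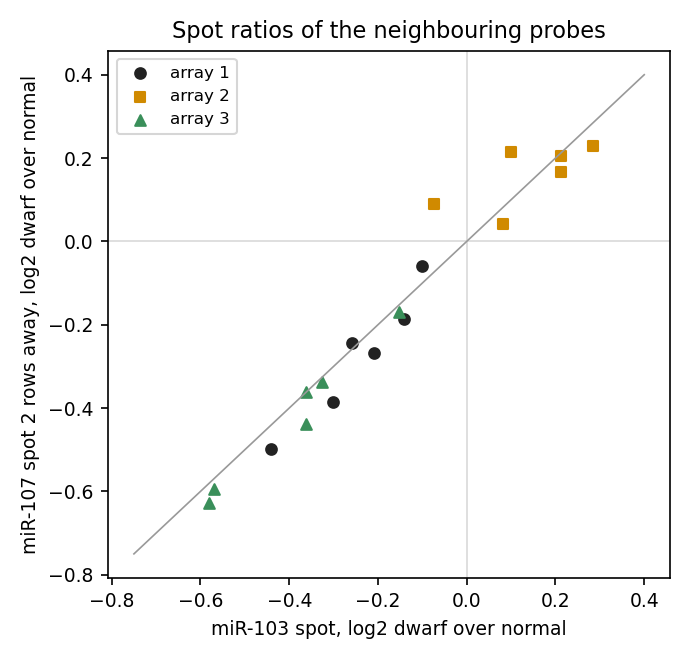
Log2 ratio of dwarf over normal at each miR-103 spot (horizontal axis) against the miR-107 spot 2 rows away (vertical axis), 6 places on each of 3 arrays, with the line of equality. Points lie close to the line, those of arrays 1 and 3 below 0 on both axes and those of array 2 above 0 but for 1 miR-103 spot.

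Among the 126 other tested miRNAs, the one whose 3 ratios were most like those of miR-103 was miR-107, and the reverse. The root mean square difference of the 3 log2 ratios was 0.028 for the pair, beside a median of 0.423 between miR-103 and the others and 0.434 between miR-107 and the others. The next in likeness was miR-30d for both, at 0.048 from miR-103 and 0.074 from miR-107, with ratios of -0.19, 0.14 and -0.33 on arrays 1, 2 and 3. After it came miR-222 for miR-103, at 0.102, and miR-2131 for miR-107, at 0.105. With 3 arrays, such a likeness is a description.

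The array held other miRNAs of nearly equal sequence, and these served as a yardstick. Of 19 tested pairs with 1 or 2 mismatches, miR-103 and miR-107 had the smallest difference, 0.028. The next was 0.093 for miR-20a and miR-20b, members of paralogous clusters, and the largest was 1.56 for miR-205a and miR-205b. The median over the 19 pairs was 0.208, and the median over all 8001 pairs of tested miRNAs was 0.597, with a lowest value of 0.023, so unrelated miRNAs could lie as close. The 19 pairs are not separate comparisons, since several share a member, such as let-7a. How far apart the spots of the other pairs lay was not compared.

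**Figure D4:**
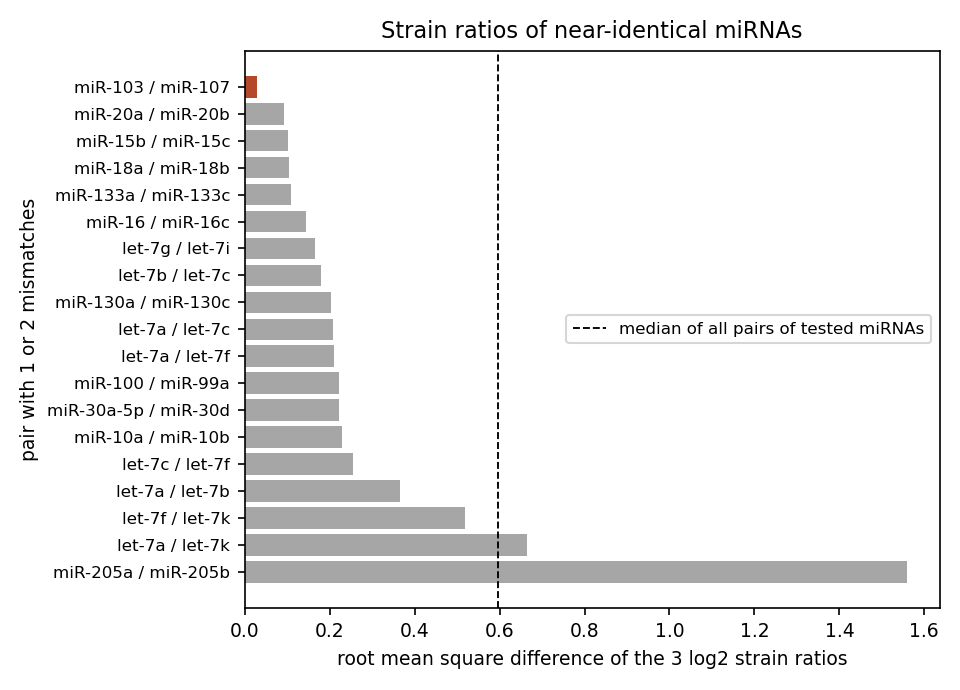
Root mean square difference of the 3 log2 strain ratios (horizontal axis) for each of 19 pairs of tested miRNAs that differ by 1 or 2 bases, with a dashed line at the median of all pairs of tested miRNAs (0.597). The bar of miR-103 and miR-107 is the shortest of the 19, and that of miR-205a and miR-205b is the longest.

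Among the miRNAs that carry AGCAGC further in, none was called. Of 6 on the array, 5 were tested and miR-1551 lay at the level of empty spots. None of the 5 passed at an adjusted or an unadjusted p of 0.05, 3 had a mean ratio above 0 and 2 below, and the median ratio was 0.06, beside -0.05 over all tested miRNAs. The miR-15 branch, which together with miR-16 is known in mammals to repress cyclins and BCL2, ran in the order of the pair, below 0 on arrays 1 and 3 and above 0 on array 2. miR-15a had -0.06, 0.66 and -0.42 on arrays 1, 2 and 3, miR-15b had -0.18, 0.34 and -0.27, and miR-15c had -0.10, 0.21 and -0.19. In the miR-16 branch, miR-16 was above 0 on 3 of 3 arrays with 0.20, 0.11 and 0.21 (mean 0.17, SE 0.12, limma adjusted p = 0.669), and miR-16c had 0.24, 0.14 and -0.03. No difference between these miRNAs and the pair was tested.

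Other miRNAs with roles in metabolism known from mammals gave no call either. Of 14 listed, 13 were on the array and 5 passed the signal filter; none of the 5 passed at an adjusted or an unadjusted p of 0.05, 3 had a mean ratio above 0 and 2 below, with a median of 0.01. miR-27b, which restrains fat cell formation, had 0.55, 0.55 and -0.09 on arrays 1, 2 and 3 (mean 0.34, SE 0.19, limma adjusted p = 0.596). miR-130a and miR-130b, which repress the fat cell regulator PPARG, had 0.18, 0.18 and -0.61 and 0.44, -0.13 and 0.03. miR-223, a miRNA of myeloid cells, had -0.20, 0.14 and 0.09.

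miR-122, the most abundant miRNA of liver, varied most in this list, with 0.32, -1.85 and 1.25 and a mean of -0.09 (SE 0.68). Its signal was low, at 39.1, 91.5 and 200.4 units in the dwarf pools, against 58.4, 207 and 220.01 in the normal pools. miR-33, which in mammals lies in the genes of the sterol regulators SREBF1 and SREBF2, stood at or near the empty spots in every pool, as did miR-29a, miR-29b, miR-29c, miR-375, miR-7 and miR-7b, and miR-34a had a mean signal of 23.2.

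**Figure D5:**
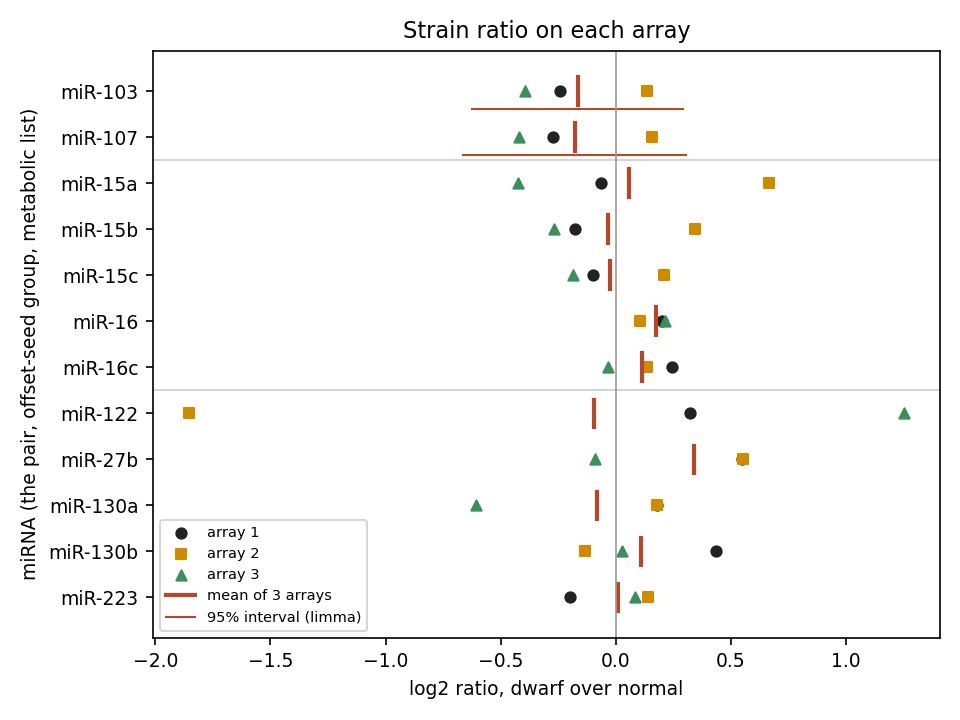
Log2 ratio of dwarf over normal on each of the 3 arrays (points) and their mean (upright bar) for miR-103, miR-107, the tested miRNAs with AGCAGC from base 2 and the tested metabolic miRNAs. The points of miR-103 (-0.24, 0.14 and -0.39) and miR-107 (-0.27, 0.16 and -0.42) nearly coincide, and the 95% confidence intervals drawn under the pair include 0.

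Between arrays and channels, brightness differed widely. Over the tested miRNAs, the median signal was 301 to 642 in the dwarf pools and 182 to 2600.1 in the normal pools. Of 7 muscle miRNAs on the array 6 were tested, and their summed signal was 14199 to 46692 units in the dwarf pools and 30235 to 69817 in the normal pools, so markers of muscle were present in every pool. Of these 6, 5 had a mean ratio below 0 and 1 above, none passed an unadjusted p of 0.05, and the median ratio was -0.18. All 6 markers of epithelium were tested, had a mean ratio above 0 with a median of 1.56, and summed to 28208 to 50581 units in the dwarf pools, against 274 to 19562 in the normal pools, lowest in the normal pool of array 2. Most of each sum came from miR-203, at 43293, 29503 and 25734 units in the dwarf pools of arrays 1, 2 and 3. In the normal pools miR-203 had 10961, 257 and 14021 units. With limma, 3 of these 6 passed an unadjusted p of 0.05, beside 14 of 127 (11%), and 0 passed an adjusted p of 0.05. Of the 6 markers, miR-205b was among those that did not pass, and was below 0 on array 3, at -0.51. Of 2 red blood cell markers 1 was tested, miR-451, which was above 0 on 3 of 3 arrays with 0.76, 2.25 and 0.85 (mean 1.28, SE 0.37, limma adjusted p = 0.324). Of 4 white blood cell markers 1 was tested, miR-223. The cartilage miRNA miR-140 stood near 0 in all pools, while its other strand, miR-140*, named after its values were seen, passed the signal filter with ratios of -3.48, 2.13 and -2.05. The mean of miR-140* was -1.13 (SE 1.22, limma adjusted p = 0.824), and its SD over the arrays was the largest of the 127 tested miRNAs. Set as Cy5 over Cy3, miR-140* was below 0 on every array, as the pair was with normexp. The part of the dye in its ratios was not tested. Also named after its values were seen, miR-455-3p, a miRNA of cartilage in mammals, was below 0 on 3 of 3 arrays with -1.25, -0.24 and -1.24 (mean -0.91, SE 0.27, limma adjusted p = 0.324). The other strand, miR-455-5p, was above 0 on array 2, with -0.84, 0.21 and -1.09 (mean -0.57, SE 0.31, limma adjusted p = 0.596). The part of tissue makeup in the ratios of miR-103 and miR-107 was not tested.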

How the data were processed

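The scanner files hold linear spot intensities in both channels, deposited by the authors with digit-grouping commas, which were removed, and with no background per spot. A second table deposited by the authors gives a log2 ratio for each miRNA and array, after their background subtraction and LOWESS normalization; the sample titles write normal over dwarf, but the values follow dwarf over normal on all 3 arrays when set against the scanner values (Pearson r 0.965, 0.860 and 0.912), and how they were centred is not given in the sources used here.

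Here the intensities were corrected with normexp (offset 50), normalised by loess within arrays with weight 0 for control spots, and averaged over 6 spots per miRNA, with the sign turned on array 2. Ratios of dim probes are drawn toward 0 by the offset. Signals are spot intensities minus the median empty spot of the channel. Normalised signals are channel values with Aquantile scaling added to loess, offset included. Of 542 miRNAs, the 127 that averaged more than 32 units of signal over the pools were tested with lmFit and eBayes of limma 3.58.1 in R 4.3.3 and Benjamini-Hochberg adjustment over all of them. The fit was tested on ratios simulated with no dye effect and no normalization step. True ratios of the size of the pair's were not simulated. Per the methods, the pools of a strain came from different embryos.

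The members, the miR-15/16 group by sequence, the metabolic and marker lists, the 2 most alike miRNAs beside the other member and the near-identical pairs follow rules that were chosen with earlier results of these data known. Sequences are those of the array files. Pools of an array deviated together from their strain means (correlations 0.613, 0.234 and 0.307), a pairing that ratios within arrays use.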

Additional observations from a re-analysis of the deposited data

How the results depend on the processing

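For the strain ratio, 21 alternatives were computed for each miRNA, among them an offset of 16, plain subtraction, median centring, no normalization, the median over spots, all miRNAs tested, a signal minimum of 100, the deposited ratios, and, chosen after seeing the data, the spots of each column block alone and loess within blocks. The mean stayed below 0 and short of the threshold in all of them, between -0.63 and -0.02 for miR-103 and between -0.65 and -0.03 for miR-107. The adjusted p lay between 0.514 and 0.997 and between 0.458 and 0.997. It came from limma except in the methods' t-test and in a plain t-test on the array ratios. Leaving out 1 array gave -0.32 to -0.05 for miR-103 and -0.35 to -0.06 for miR-107. Median centring and no normalization moved the median ratio of all tested miRNAs to -0.26 and -0.50, against -0.05, so their ratios for the pair are to be read against these medians. With separate channels and no replicate block, the ratios were -0.17 and -0.18 with an adjusted p of 0.997. The number of tested miRNAs past the threshold was 2 with median centring and 3 with a dye coefficient, against 0, and neither included miR-103 or miR-107. The methods' t-test called 1 miRNA at its threshold and 0 after adjustment. The dye ratio passed the threshold with no normalization, at -1.41 for miR-103 and -1.45 for miR-107 (limma adjusted p = 0.00885 for both), where the brightness of the channels is left in. Loess fitted on the detected miRNAs left -0.06 and -0.07, and plain subtraction left -0.11 and -0.13, against -0.26 and -0.28. Leaving out 1 array gave dye ratios of -0.32 to -0.19 and -0.35 to -0.22. The -0.32 and -0.35 came without array 2, where the dwarf pool always carried Cy5. There the strain ratio and the dye ratio are the same value. The difference between the probes' ratios was 0.0037 to 0.030 over 10 alternatives. With 3 arrays the exact test cannot pass 0.05, and the background treatment moves the pair's ratios as well.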
